A study of Mus musculus with 33 samples.

Results

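Reporter-negative mouse cardiomyocytes at postnatal day 19 (P19) were compared with reporter-negative cardiomyocytes at embryonic day 14.5 (E14.5). The cells were chosen by their labels alone, as the 4 P19 and 11 E14.5 cells labelled mAG-hGem negative, 15 of the 33 cells sequenced. All came from ventricles of mice transgenic for mAG-hGem, a fusion of the green protein Azami green to geminin that accumulates in S, G2 and M phase and is degraded in G1. The ventricles were digested with enzymes, single cells were sorted by flow cytometry, and cDNA of single cells was kept when a PCR found Tnnt2 (cardiac troponin T) and did not find Pdgfrb, a receptor of mural cells and fibroblasts. All groups carried the reporter and none was treated. The transgene's promoter, the strain, the sex and the number of animals are not given in the labels used here. Cells are called by their titles, AN1, AN3, AN4 and AN5 at P19, and N3, N5, N7, N8, N10, N21, N23, N24, N25, N28 and N30 at E14.5. Since no label ties a cell to an animal, each group counted as 1 sample, so that only sizes of differences are reported, without a test. The intervals reflect counting error alone.

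Cardiomyocytes before birth divide, burn mainly glucose and lactate, and build their contractile apparatus partly from isoforms shared with slow skeletal or atrial muscle. In the weeks after birth most of them leave the cell cycle, take up fatty acids, fill with mitochondria and replace fetal isoforms of troponin, myosin, metabolic enzymes and ion pumps by adult ones. Troponin I is the standard example, as the slow skeletal form encoded by Tnni1 gives way to the cardiac form encoded by Tnni3.

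The 4 P19 cells held 23.4 to 40 M counts and 7954 to 10717 genes with a count, against 7.8 to 55 M counts and 5924 to 9281 genes in the 11 E14.5 cells. A level is given as counts per 1000000 of the cell's total (CPM), and for a group as the CPM of the counts summed over its cells, 126.6 M at P19 and 318.4 M at E14.5. The difference is the log2 ratio of these group levels, P19 over E14.5, so that negative values are lower at P19. Of 20728 genes, 13201 had at least 10 counts over both groups and are called measured. Where a group had 0 counts, it was set to a floor of 3 counts over the group and the fold is given as "at least". Such a bound concerns summed reads, not transcripts in the cell, because the cDNA was amplified before sequencing. CPM values are not corrected for gene length and are compared only within a gene or a list.

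Cardiomyocyte identity was checked first. Tnnt2 stood at 6631, 8818, 10090 and 8108 CPM in AN1, AN3, AN4 and AN5, and at 501 to 8258 CPM (median 4706) in the E14.5 cells, but it had been used for selection. Pdgfrb had 2 counts in AN1 and 0 in every other cell. The reporter label was then set beside transcripts of the cell cycle. A list of 46 G2/M genes summed to 272 to 454 CPM in the P19 negative cells and to 336 to 5142 CPM in the E14.5 negative cells, against 2602 to 23280 CPM in the 10 E14.5 positive cells. N24 was the only E14.5 negative cell inside the G2/M range of the positive ones. In a list of 36 S phase genes the E14.5 groups overlapped. Negative cells held 482 to 23556 CPM (median 2234) and positive cells 1069 to 17406 CPM (median 6366). At P19 neither list told the groups apart. The 8 P19 positive cells held 167 to 472 CPM of G2/M genes and 298 to 750 CPM of S phase genes. The P19 negative cells held 393 to 625 CPM of S phase genes. N10 held 60362 CPM of a fibroblast list and AN1 held 1414 CPM of an endothelial list. The next highest cells of their groups held 4013 and 1.21 CPM. Several values that rest on N24, N10 or AN1 are given below also without them.

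More genes were lower than higher at P19. Of the 13201 measured genes, 2943 (22.3%) were at least 2-fold higher at P19 and 6720 (50.9%) at least 2-fold lower, with a median log2 ratio of -1.07. This split depended on how cells were combined. Higher genes made up 30.5% of those past 2-fold by summed counts, 36.1% with TMM factors (median -0.71), 46.7% by mean log2(CPM + 1) (median -0.12) and 55.3% by the median over cells (median 0.00). Few genes separated the cells fully. In 432 genes (3.27%) every P19 cell lay above every E14.5 cell, and in 193 (1.46%) every P19 cell lay below. The 10 most abundant genes of a cell took 23.6% to 25.6% of the counts at P19 and 6.8% to 13.5% at E14.5, and the all-gene median was -0.75 when the totals left out the 10 most abundant genes of each group. The counts and medians of lists below are therefore read against 22.3%, 50.9% and -1.07, and counts of genes without overlap against 3.27% and 1.46%. Values by the median over cells are read against 23.4% higher, 19% lower and a median of 0.00.

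The 10 genes that led at P19 when genes were ranked by the smallest ratio obtained on leaving out any single cell were close to absent at E14.5. They were Rpl3l (a ribosomal protein paralogue of striated muscle), Xirp2 (an actin-binding protein of the intercalated disc), Ces1d (a lipid hydrolase), Plin5 (a coat protein of lipid droplets), Mylk4 (a myosin light chain kinase), Fbp2 (muscle fructose-1,6-bisphosphatase), Trim54 (a ubiquitin ligase of the sarcomere), Rxrg (retinoid X receptor gamma), Tmc7 (a transmembrane protein) and Myom2 (a protein of the M band). Xirp2 stood at 200.1, 286, 300.4 and 331 CPM in AN1, AN3, AN4 and AN5, Ces1d at 155, 235, 671 and 243 CPM, and Plin5 at 169, 265, 74 and 166 CPM, each with no count in any E14.5 cell. They were at least 28816-fold, at least 30968-fold and at least 18832-fold higher at P19. Fbp2 stood at 63.2, 207, 174 and 40.7 CPM at P19 with 1 count at E14.5, a log2 ratio of 15.20 (12.72 to 20.50). Mylk4 was uneven among the P19 cells, at 122, 257, 0.343 and 129.8 CPM, with 2 counts at E14.5 (14.43, 12.58 to 17.48). Trim54 had 8 counts and Myom2 4 counts at E14.5, each in 1 cell, and reached 143, 527, 279.6 and 375 CPM and 124, 54, 99.4 and 115 CPM at P19.

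The 10 genes that led at E14.5 were Vim (the intermediate filament vimentin), Fstl1 (a secreted glycoprotein), Tnni1, Id2 (an inhibitor of helix-loop-helix factors), Atf3 (a stress-induced transcription factor), Bex4 and Bex1 (small adaptor proteins), Ndn (the imprinted gene necdin), Igf2 (the fetal insulin-like growth factor) and Vcan (the matrix proteoglycan versican). Vim had no count in any P19 cell and stood at 345 to 7174 CPM (median 1150.0) at E14.5, at least 81403-fold lower. Fstl1 was likewise at 0 at P19 and at 693 to 3598 CPM (median 938) at E14.5. Bex1 was at 0 at P19 and at 206 to 1794 CPM (median 574) at E14.5, whereas Bex4, also at 0 at P19, was missing from 1 E14.5 cell. Id2 and Vcan had 2 counts each at P19, with log2 ratios of -15.72 (-18.77 to -13.87) and -14.55 (-17.60 to -12.70). In all, 22 genes with at least 20 CPM at P19 had a count in all 4 P19 cells and in no E14.5 cell, and 23 genes with at least 20 CPM at E14.5 had a count in all 11 E14.5 cells and in no P19 cell.

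**Figure D1:**
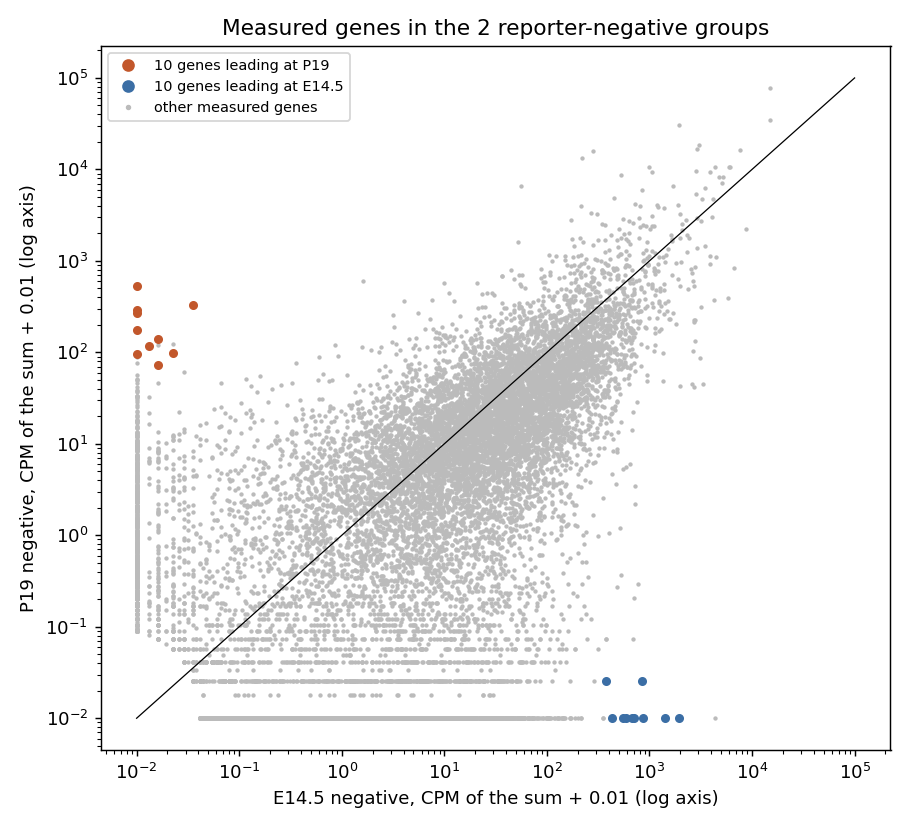
Each point is 1 of the 13201 measured genes, with the CPM of the summed E14.5 negative cells on the x axis and of the summed P19 negative cells on the y axis, both plus 0.01 on log axes; the black line marks equal levels. The 10 genes leading at P19 sit at the left edge, with at most 8 counts at E14.5, and the 10 leading at E14.5 sit at the bottom edge, with at most 2 counts at P19.

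The troponin I pair set the 2 ages apart completely. Tnni1 lies on chromosome 1 at 135779434 to 135810989 of GRCm38 (plus strand) and had no count in any P19 cell. It stood at 245 to 1798 CPM (median 814) in the E14.5 cells, at least 36695-fold lower at P19. Tnni3, on chromosome 7 at 4518305 to 4524229 (minus strand), stood at 3682, 6637, 6244 and 3116 CPM in AN1, AN3, AN4 and AN5 and at 136 to 1062 CPM (median 407) at E14.5, 10.8-fold higher. The E14.5 cells thus carried both transcripts and the P19 cells only Tnni3. Rpl3l, on chromosome 17 at 24727820 to 24736143 (plus strand), was the mirror image of Tnni1. It stood at 313, 499.8, 1069.5 and 423 CPM at P19 and at 0 in all 11 E14.5 cells, at least 56103-fold higher. Its widely expressed paralogue Rpl3 overlapped between ages, at 21.9, 31.4, 5.57 and 7.4 CPM against 7.75 to 40.9 CPM (median 21.9). Rpl3 has many near-identical pseudogenes, which makes its value uncertain.

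Of 20 pairs of related genes, each with a form known from fetal or non-muscle tissue and a form known from adult heart, 15 had the adult form higher and the other lower, and in 10 both differed at least 2-fold. Without the Myh7 pair, whose fetal form changed sign with the cells used, these were 14 and 9, and without the uncertain Rpl3 pair as well 13 and 9. The log2 ratio of the adult to the other form within a cell was higher in every P19 cell than in every E14.5 cell in 15 pairs, was lower in none, and overlapped in 5 (creatine kinase Ckm over Ckb, hexokinase Hk2 over Hk1, enolase Eno3 over Eno1, lactate dehydrogenase Ldhb over Ldha, and fatty acid binding protein Fabp3 over Fabp5). Eno1 had no count in any of the 15 cells. The pairs had been chosen from knowledge of the isoform switches, so their direction is not independent evidence. In Tnni3 over Tnni1 the within-cell log2 ratio was 11.61 to 12.70 at P19 and -2.14 to 0.06 at E14.5.

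**Figure D2:**
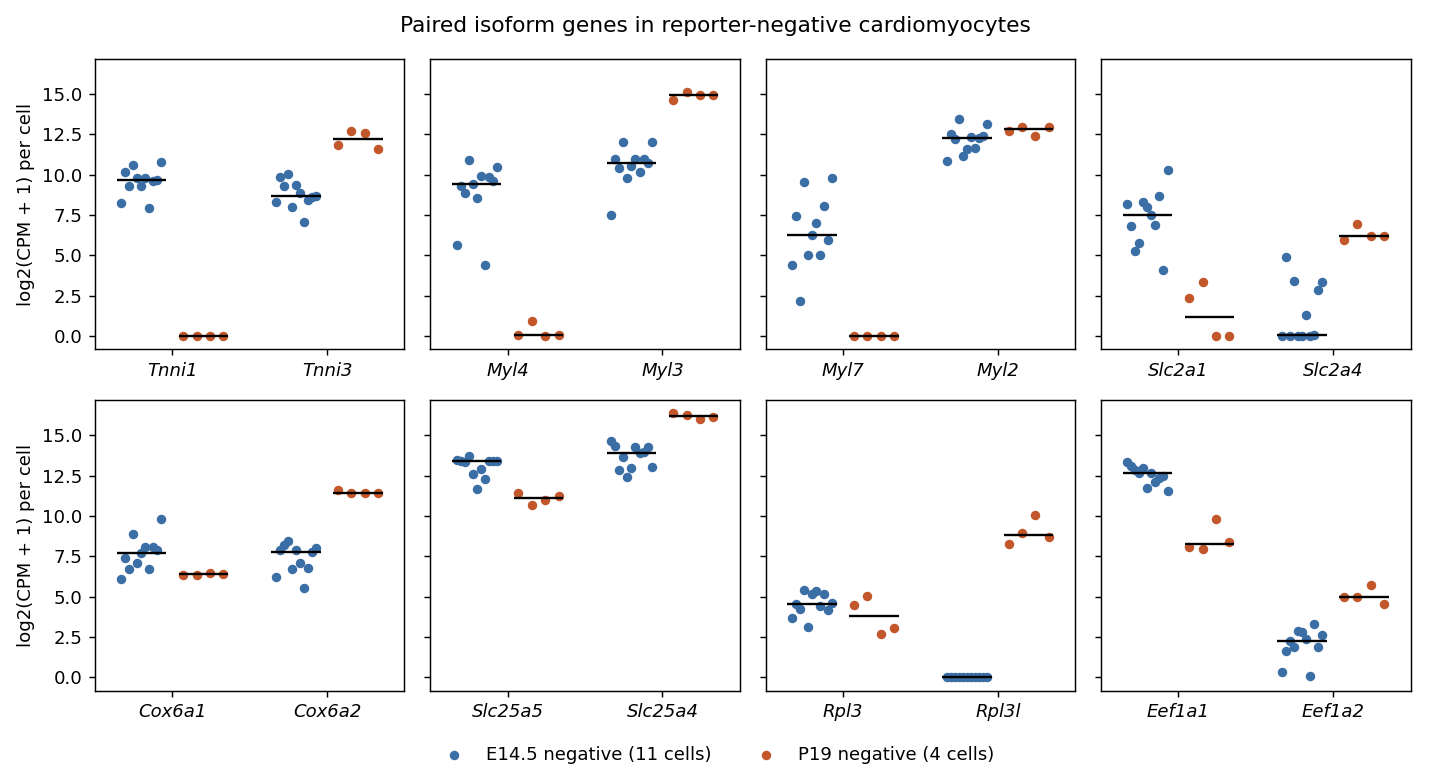
Level of 8 pairs of related genes in each reporter-negative cell, as log2(CPM + 1) on the y axis; each point is 1 cell, blue for E14.5 (11 cells) and orange for P19 (4 cells), and black bars are medians over cells. Tnni1 and Myl7 lie at 0 in all 4 P19 cells and Rpl3l lies at 0 in all 11 E14.5 cells, while Myl2 overlaps between ages.

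Both fetal light chains of myosin were nearly absent at P19, while only 1 of their ventricular counterparts was higher without overlap. Myl4, the essential light chain of atria and fetal ventricle, stood at 0.0499, 0.92, 0 and 0.0705 CPM at P19 and 20 to 1913 CPM (median 684) at E14.5, a log2 ratio of -11.41. Myl3, the ventricular essential light chain, stood at 24851, 35844, 30765 and 30940 CPM against 179 to 4234 CPM (median 1697), 15.5-fold higher, with no overlap. Myl7, the atrial regulatory light chain, was at 0 in every P19 cell and at 3.5 to 871 CPM (median 76.6) at E14.5. Myl2, the ventricular regulatory light chain, overlapped, at 6725, 8018, 5460.4 and 7786 CPM against 1808 to 11350 CPM (median 4888) and a log2 ratio of 0.46. In heavy chains, Myh6, the fast alpha form, stood at 11085, 18849, 23210 and 13819 CPM at P19 and 0.641 to 679 CPM (median 183) at E14.5, 57.2-fold higher and without overlap. Myh7, the slow beta form, overlapped, at 20, 24.1, 183 and 27.1 CPM against 0.732 to 299 CPM (median 41.8). Its log2 ratio of -1.35 became 0.11 when only the E14.5 cells with title numbers 3 to 10 were used, so no direction is given for it.

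The genes whose levels ordered the 15 cells most like Tnni1, by Spearman's rho over 5699 genes ranked, were Myl4 (0.933), Hif3a (0.913), Myl7 (0.905), Mex3a (0.862) and Cox6a1 (0.858). Among the 11 E14.5 cells alone the coefficients were 0.855, 0.782, 0.764, 0.752 and 0.791. The 15 values share the contrast between ages, which alone raises the coefficient of any gene lower in all P19 cells, and the cells share library depth. For Rpl3l, Art5, Ces1d, Lynx1 and Rai2 were among the closest genes, tied at 0.994, each at 0 in every E14.5 cell.

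The sarcomere list as a whole was higher at P19. It had 39 measured genes, of which 19 (48.7%) stood at least 2-fold higher, while 9 (23.1%) were lower by that margin, and the median was 0.80. In 11 genes every P19 cell lay above every E14.5 cell and in 3 below, beside 3.27% and 1.46% of all genes. The list summed to 114630 to 143930 CPM per cell at P19 and 30297 to 70805 CPM at E14.5. Tpm1, the main cardiac tropomyosin, stood at 17161, 21798, 16222 and 19081 CPM against 785 to 7798 CPM (median 2625). Des, the muscle intermediate filament desmin, stood at 518, 926, 809.6 and 783 CPM against 5.09 to 403 CPM (median 139). It was higher in every P19 cell, while Vim, the other cytoplasmic intermediate filament gene named here, had no count there.

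The DNA upstream of start sites was searched for 4 short motifs in RefSeq promoters (GRCm38.p6), from 250 bases before to 50 bases after each start, on both strands. The motifs were the MEF2 site CTANNNNTAG, the CArG box bound by SRF, the site AAGGTCA of oestrogen-related receptors, and the E2F sites GGCGGGAA or TTTGGCGC. A gene counted once if any of its promoters held the motif, and matches of different motifs were counted separately even where they overlapped. Of 32 sarcomere genes with a promoter in the table, 7 (21.9%) held the MEF2 letters and 7 (21.9%) the CArG letters, against 4.23% and 1.81% of all 27025 genes. A match describes letters only and is not evidence of binding. The light chain genes Myl3 and Myl7, which differed in opposite directions, both held a CArG match, and Xirp2 held a MEF2 match. Among the 8 genes leading at P19 that had a promoter in the table, 3 held the site of oestrogen-related receptors (37.5%, against 5.38% of all genes), namely Rxrg, Mylk4 and Rpl3l, the last in the second of its 2 promoters. The 2 promoters of Tnni1 held none of the 4 motifs. The 250 bases before the start are shown for 4 of these genes because they carry the matches named here, in lower case with the match in capitals (the second of 2 promoters for Rxrg).
Xirp2 (GRCm38.p6, chr2:67445752-67446001, plus strand): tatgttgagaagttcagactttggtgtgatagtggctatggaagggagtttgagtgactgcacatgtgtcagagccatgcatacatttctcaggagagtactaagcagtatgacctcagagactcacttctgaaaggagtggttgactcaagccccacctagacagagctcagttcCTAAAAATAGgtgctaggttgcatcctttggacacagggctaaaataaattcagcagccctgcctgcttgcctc
Myl3 (GRCm38.p6, chr9:110763428-110763677, plus strand): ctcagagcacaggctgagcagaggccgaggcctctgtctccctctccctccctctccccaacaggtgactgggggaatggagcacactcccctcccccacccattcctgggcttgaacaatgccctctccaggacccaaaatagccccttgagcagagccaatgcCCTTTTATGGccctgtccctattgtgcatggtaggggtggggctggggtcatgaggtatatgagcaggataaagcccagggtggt
Myl7 (GRCm38.p6, chr11:5898783-5899032, minus strand): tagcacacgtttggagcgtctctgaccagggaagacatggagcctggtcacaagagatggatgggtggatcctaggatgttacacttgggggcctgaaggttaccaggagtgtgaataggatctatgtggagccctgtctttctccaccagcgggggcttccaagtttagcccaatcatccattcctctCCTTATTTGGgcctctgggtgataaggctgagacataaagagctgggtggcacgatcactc
Rxrg (GRCm38.p6, chr1:167618015-167618264, plus strand): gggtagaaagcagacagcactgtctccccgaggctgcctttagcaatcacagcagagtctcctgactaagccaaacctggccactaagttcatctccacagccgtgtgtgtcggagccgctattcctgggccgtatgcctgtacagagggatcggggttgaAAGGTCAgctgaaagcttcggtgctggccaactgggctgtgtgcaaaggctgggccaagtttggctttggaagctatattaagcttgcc
The match begins 74 bases before the start in Xirp2, 85 in Myl3, 61 in Myl7 and 89 in Rxrg.

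The summed counts of calcium handling genes took a larger share at P19, though members differed in direction. Most of the sum at P19 came from Atp2a2 and Pln, so it does not stand for the list as a whole. The list summed to 26520 to 40376 CPM per cell at P19 and 8954 to 24285 CPM at E14.5, without overlap. At least 2-fold higher were 8 of 26 measured genes (30.8%), while those lower by that margin numbered 10 (38.5%). The median was -0.29, beside -1.07 for all genes, or 0.07 with TMM factors, beside -0.71. By the median over cells it was 0.00, equal to that of all genes. On that scale 9 (34.6%) were higher and 5 (19.2%) lower, beside 23.4% and 19% of all genes. The pump of the sarcoplasmic reticulum, Atp2a2, stood at 14602, 13625, 17469 and 22483 CPM at P19 and 910.2 to 5791 CPM (median 3282) at E14.5, 5.74-fold higher and without overlap. S100a1, which encodes a calcium sensor, and Hrc, which encodes a calcium-binding protein of the reticulum, were at 239.8, 303, 264 and 176 CPM against 0.769 to 36.3 CPM (median 11.9), and at 118, 156, 172 and 126 CPM against 0 to 44.5 CPM (median 7.24). Pln, the inhibitor of the pump, overlapped, with 9916, 7843, 8589 and 10885 CPM against 349 to 8151 CPM (median 3731). Casq1, the skeletal calsequestrin, was at 0, 0, 0.171 and 0 CPM at P19 and 0 to 594 CPM (median 30.9) at E14.5, while the cardiac form Casq2 overlapped at 731, 586, 849 and 853 CPM against 52.7 to 860.4 CPM (median 306).

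Ion channel and adrenergic genes had 18 of 34 measured members (52.9%) at least 2-fold higher, beside 22.3% of all genes. Those lower by that margin numbered 6 (17.6%), beside 50.9%, and the median was 1.38. When only members with at least 20 CPM were counted it was -0.15, beside -1.08 for all genes past that limit. The list sum overlapped, at 2999 to 4160 CPM per cell at P19 and 2371 to 4635 CPM at E14.5. Kcnk3, a potassium leak channel, stood at 63.5, 43.7, 20.8 and 83.4 CPM against 0 to 1.25 CPM (median 0.0657). Gja1, the gap junction protein connexin 43, overlapped at 529, 609, 698 and 1367 CPM against 0.524 to 2004 CPM (median 1133).

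Genes of fatty acid use were higher at P19 with few exceptions. Of 33 measured genes for uptake and oxidation, 24 (72.7%) were at least 2-fold higher, 1 (3.03%) was at least 2-fold lower and the median was 1.49. In 14 of them every P19 cell lay above every E14.5 cell and in none below, beside 3.27% and 1.46% of all genes. The list summed to 38555 to 43754 CPM per cell at P19 and to 4045 to 18394 CPM at E14.5. Lpl, the lipoprotein lipase that frees fatty acids, stood at 13883, 5362, 13048 and 10310 CPM at P19 and 8.87 to 3951 CPM (median 772) at E14.5, 10.6-fold higher. Fabp3, the heart carrier of fatty acids, stood at 7985, 9996, 10063 and 6959.8 CPM against 159 to 1041 CPM (median 527), 16.5-fold higher. The member that was at least 2-fold lower was Cpt1a, the liver form of the enzyme that admits fatty acids to mitochondria, at 3.65, 14.6, 0 and 4.93 CPM against 0 to 91.4 CPM (median 27.8). Hsdl2, a peroxisomal enzyme, overlapped at 215, 152, 192 and 139 CPM against 2.22 to 450.1 CPM (median 119.6). Oxct1, an enzyme of ketone use, stood at 4255, 4421, 3305 and 3818 CPM against 0 to 1403 CPM (median 804). Bdh1, another enzyme of ketone use, had the opposite sign. Its log2 ratio was -10.42, or -1.81 by mean log2(CPM + 1).

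Downstream of fatty acids, 34 (65.4%) of 52 genes of oxidative phosphorylation were at least 2-fold higher, 1 (1.92%) was at least 2-fold lower and the median was 1.77. In 31 of the 52 every P19 cell lay above every E14.5 cell, beside 3.27% of all genes. The list took 135390 to 153550 CPM of each P19 cell and 34541 to 88065 CPM of each E14.5 cell. Uqcrc1, a core subunit of complex III, stood at 417, 878, 775 and 738 CPM against 4.23 to 107 CPM (median 29.4), 18.7-fold higher. Ndufs7, a subunit of complex I, stood at 558, 1257, 968 and 453 CPM against 5.98 to 95.8 CPM (median 48.4). Atp5g3, a subunit of the ATP synthase ring, stood at 43008, 31768, 28175 and 30045 CPM against 9039 to 22394 CPM (median 11679), only 2.26-fold higher but without overlap.

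The member lower at least 2-fold was Cox6a1, the widely expressed form of a cytochrome c oxidase subunit, at 78.9, 81.9, 88 and 84.7 CPM against 68.2 to 902 CPM (median 210.0). Its heart form Cox6a2 stood at 3071, 2709.6, 2689 and 2701 CPM against 44.9 to 343 CPM (median 217), 16.3-fold higher. The heart forms Cox7a1 and Cox8b were higher too, at 417, 495, 592 and 317 CPM against 3.41 to 63.2 CPM (median 25.8), and at 125, 179, 217 and 108 CPM against 0 to 50 CPM (median 5.19). Among 22 genes of the citrate cycle and malate-aspartate shuttle, 16 were at least 2-fold higher, while none was that far lower, with a median of 1.42. Got1, the cytosolic aspartate aminotransferase, stood at 1046, 806, 1096 and 1047 CPM against 9.47 to 225 CPM (median 139), whereas the shuttle enzyme Mdh1 overlapped at 10162, 7998, 6557 and 6972 CPM against 2043 to 7033 CPM (median 5820.1).

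Of 13 measured genes that move energy and oxygen in the cell, 6 were at least 2-fold higher, 2 at least 2-fold lower and the median was 0.62. Slc25a4, the muscle carrier that exchanges ATP for ADP across the mitochondrial membrane, took more counts than any other gene in each P19 cell, 6.5% to 8.5% of the total. It stood at 85334, 79704, 65464 and 71391 CPM at P19 and 5419 to 25620 CPM (median 15153) at E14.5, while its paralogue Slc25a5 was lower in every P19 cell, at 2754, 1643, 1993 and 2374 CPM against 3327 to 13400 CPM (median 10674). Mb, the oxygen-binding protein myoglobin, stood at 10232, 17035, 16697 and 10298 CPM against 0 to 734 CPM (median 106), 60.1-fold higher. Ckmt2, the mitochondrial creatine kinase of muscle, stood at 6264, 8881, 5940.1 and 4757 CPM against 0 to 259 CPM (median 0.19), with a count in 6 of 11 E14.5 cells. The cytosolic muscle creatine kinase Ckm stood at 3019, 5195, 4716 and 3437 CPM against 8.98 to 385 CPM (median 194).

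**Figure D3:**
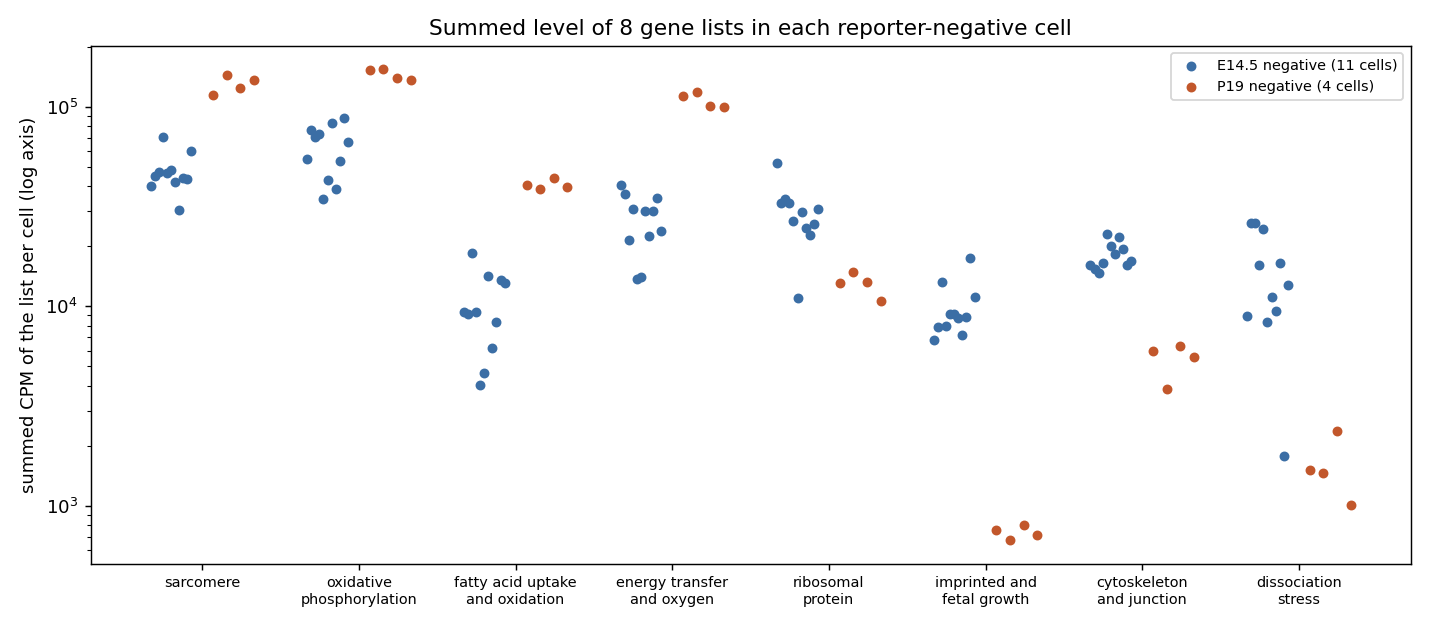
Summed CPM of 8 gene lists in each reporter-negative cell on a log axis; each point is 1 cell, blue for E14.5 (11 cells) and orange for P19 (4 cells). The sarcomere, oxidative phosphorylation, fatty acid and energy transfer sums lie higher in all 4 P19 cells, the imprinted and cytoskeleton sums lie lower in all 4, and the ribosomal protein and dissociation stress sums overlap.

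Glycolytic genes likewise took a larger share at P19. Their sum was 7268 to 11610 CPM per cell at P19 and 2624 to 6761 CPM at E14.5, without overlap. At least 2-fold higher were 12 of 27 measured genes (44.4%), while those lower by that margin numbered 7 (25.9%), and the median was 0.58. The glucose transporters split, as Slc2a1, the widely expressed form, stood at 4.1, 9.14, 0 and 0 CPM at P19 and 16 to 1239.9 CPM (median 182) at E14.5, and Slc2a4, the insulin-responsive form of muscle and fat, at 61.5, 122, 71.3 and 72.3 CPM against 0 to 28.7 CPM (median 0.0544). Neither gene overlapped between ages. Pgam2, the muscle phosphoglycerate mutase, and Ldhb, the heart lactate dehydrogenase, were at 401, 617, 699 and 358 CPM against 19 to 190.2 CPM (median 67.1) and at 1887, 3773, 3729.6 and 2399.5 CPM against 169.9 to 1046 CPM (median 626). Pfkfb3, which makes an activator of glycolysis, was at 0 in every P19 cell and at 0 to 757 CPM (median 0.0363) at E14.5, where 6 of 11 cells held a count.

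Regulators of mitochondria differed in direction, with a larger share higher at P19 than among all genes. At least 2-fold higher were 9 of 20 measured genes (45%), beside 22.3% of all genes. Those lower by that margin numbered 4 (20%), beside 50.9%. The median was 0.52, or 1.10 by the median over cells. Ppargc1a, the coactivator PGC-1 alpha, overlapped at 362, 254, 504 and 109 CPM against 3.11 to 2129 CPM (median 777), with a log2 ratio of -1.58. Esrrg, an oestrogen-related receptor, overlapped at 41.1, 0.0575, 29.7 and 41.6 CPM against 0.48 to 449 CPM (median 223), with a ratio of -3.12. Rxrg, the retinoid X receptor named above, stood at 105, 114, 88.6 and 71.6 CPM at P19 and 0 in every E14.5 cell. Pink1, a kinase of mitochondrial quality control, stood at 451, 769, 1404 and 632 CPM against 0 to 289 CPM (median 70), without overlap.

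Thyroid hormone receptor beta, Thrb, stood at 98.9, 31.5, 42.7 and 15.3 CPM at P19 and 0 to 0.779 CPM (median 0) at E14.5, where 2 of 11 cells held a count. In its list of thyroid, glucocorticoid and insulin signalling, 4 of 23 measured genes (17.4%) stood at least 2-fold higher, beside 22.3% of all genes. Those lower by that margin numbered 10 (43.5%), beside 50.9%. The median was -0.87, close to the -1.07 of all genes. By the median over cells 6 were higher and 5 lower, and the median was 0.00, as for all genes. Igf1r, the receptor of insulin-like growth factors, overlapped at 26.4, 0.0575, 60 and 0.352 CPM against 1.63 to 1372 CPM (median 249.9). Igf2r, the receptor that clears Igf2, stood at 139.9, 66.4, 89.8 and 114 CPM against 498 to 2094 CPM (median 1007) and was lower in every P19 cell.

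Imprinted and fetal growth genes were the list with the lowest median. By at least 2-fold, 20 of 21 measured genes (95.2%) were lower at P19, and none was higher. The median was -10.31, or -4.68 by the median over cells. In 8 of the 21 every P19 cell lay below every E14.5 cell, beside 1.46% of all genes. The list summed to 673 to 805 CPM per cell at P19 and to 6815 to 17547 CPM at E14.5. Igf2 was at 0 in every P19 cell and at 0.444 to 1224 CPM (median 216) at E14.5, and Ndn at 0 against 109.8 to 1452 CPM (median 428). Meg3, a maternally expressed non-coding RNA, had 2 counts at P19 and stood at 0 to 913 CPM (median 24.6) at E14.5, a log2 ratio of -14.16 (-17.21 to -12.31). Grb10, an inhibitor of growth factor receptors, was present at both ages, at 135, 63.9, 54.3 and 151 CPM against 1029 to 5266 CPM (median 1818), and Gnas, a G protein subunit, at 585, 582, 704 and 566 CPM against 1970.3 to 5740.5 CPM (median 2745). Both were lower in every P19 cell.

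Cardiac transcription factors were mostly lower at P19. By at least 2-fold, 22 of 31 measured genes were lower and 5 were higher, and the median was -2.33. By the median over cells 13 (41.9%) were lower and the median was -0.61, beside 19% and 0.00 for all genes. Ankrd1, a stretch-sensitive nuclear cofactor, stood at 206, 459, 359 and 246 CPM at P19 and 415 to 12277 CPM (median 2027) at E14.5, with a slight overlap. Hey2, a repressor of the compact ventricular wall, was at 0, 0, 0 and 4.02 CPM against 0 to 379 CPM (median 124). Hopx, a homeodomain-only factor, overlapped at 969, 761, 546 and 714 CPM against 532 to 2577 CPM (median 1006). Srf, the factor that binds CArG boxes, overlapped with the opposite sign, at 68.3, 59.3, 69.5 and 88.7 CPM against 0 to 91.9 CPM (median 5.22) and a ratio of 2.36.

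By summed counts, genes of translation were lower by about as much as all genes or somewhat more. Of 76 measured ribosomal protein genes, 38 (50%) were at least 2-fold lower and 6 (7.89%) at least 2-fold higher. The median of -0.95 was close to that of all genes. By the median over cells 33 of the 76 (43.4%) were lower and the median was -0.72. On that scale 12 of 30 translation and ribosome assembly factors (40%) were lower, with a median of -0.58. All genes then had 19% lower and a median of 0.00. Many ribosomal protein genes have near-identical pseudogenes, so single values are uncertain. Rpl4 stood at 916, 977, 995 and 446 CPM at P19 and 1028 to 35621 CPM (median 6556) at E14.5, and Rpl39 at 273, 177, 161 and 221 CPM against 1302 to 3688 CPM (median 2636). Of 30 translation and ribosome assembly factors, 18 were at least 2-fold lower, 1 was at least 2-fold higher and the median was -1.52. The higher one was Eef1a2, the muscle and neuron form of elongation factor 1 alpha, at 30.7, 30.5, 50.8 and 22.4 CPM against 0.0487 to 8.97 CPM (median 3.82). Its widely expressed paralogue Eef1a1 stood at 271, 252, 906 and 336 CPM against 2933 to 10514 CPM (median 6562). Mycn, a driver of ribosome synthesis, was at 0 in every P19 cell and at 0 to 388 CPM (median 166) at E14.5. Splicing factors had a median of -1.24, with Srsf1 at 47, 54, 78.2 and 30.1 CPM against 93.1 to 1487 CPM (median 362), and chromatin genes a median of -1.66, with the histone gene H3f3b at 321, 119, 188 and 260.0 CPM against 787 to 5873 CPM (median 2886).

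Genes of the cytoskeleton and junctions had 24 of 35 measured members at least 2-fold lower, 5 at least 2-fold higher and a median of -2.10. Tmsb4x, the actin-sequestering peptide thymosin beta 4, stood at 116, 0.115, 15.8 and 23.7 CPM at P19 and 1584 to 8253 CPM (median 3656) at E14.5, without overlap. Tuba1a, an alpha tubulin whose reads are shared with near-identical paralogues, was at 118, 111, 105 and 0.775 CPM against 2.44 to 5512 CPM (median 2536). Dag1, the dystroglycan gene that anchors the cell to its matrix, had the opposite sign at 155, 145, 166 and 124 CPM against 4.72 to 134 CPM (median 22.6). Among 31 genes of protein quality control and antioxidant defence, 15 were at least 2-fold higher and 5 at least 2-fold lower. Hspb6, a small heat shock protein of muscle, stood at 506, 889.8, 567 and 790.0 CPM against 5.64 to 61.4 CPM (median 35.5), and Sod2, the mitochondrial superoxide dismutase, at 2211, 2830.1, 2103 and 2246 CPM against 397 to 1349 CPM (median 625).

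Immediate early and stress genes that respond to dissociation were all lower by size at P19. The difference reached 2-fold in all 19 measured members, with a median of -5.86, beside a median of -2.49 in the same comparison of reporter-positive cells. The list summed to 1011 to 2377 CPM per cell at P19 and to 1785 to 26266 CPM at E14.5, where N28 was the lowest. Fos stood at 113, 0.115, 30.8 and 0.705 CPM against 0.745 to 9471 CPM (median 2404), Atf3 at 0 against 7.67 to 3095 CPM (median 757), and Hspa5, a chaperone of the endoplasmic reticulum, at 904, 1251, 1972 and 672 CPM against 667 to 8076 CPM (median 3848). The part of dissociation in the other differences was not tested.

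Cell cycle genes were low at P19 but the E14.5 cells, sorted as reporter negative, were unequal. In S phase, 31 of 36 measured genes (86.1%) stood at least 2-fold lower, with none that far higher, and the median was -5.04. In G2/M, 39 of 43 (90.7%) stood at least 2-fold lower, while 3 (6.98%) were higher by that margin, and the median was -7.13. Without N24 the medians were -3.04 and -3.35. S phase then had 28 of 36 genes lower and 1 higher, and G2/M had 27 of 37 lower and 6 higher. By the median over cells the medians were -0.16 and 0.00, with 13 of 36 S phase genes lower and 5 higher, and 7 of 43 G2/M genes (16.3%) lower and 3 higher, beside 19% of all genes lower on that scale. No gene of either list had every P19 cell below every E14.5 cell, which held for only 1.46% of all genes. The S phase sum was 393 to 625 CPM per cell at P19 and 482 to 23556 CPM at E14.5. N7 lay inside the P19 range in S phase genes, and N7, N10 and N28 in G2/M genes.

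Pcna, the sliding clamp of DNA replication, stood at 126, 101, 84.5 and 64.5 CPM in the P19 cells and at 1.37 to 6949 CPM (median 499) at E14.5, with its highest value in N24. Mcm6, a subunit of the replicative helicase, was at 0 in every P19 cell and at 0 to 1341 CPM (median 182) at E14.5, where 8 of 11 cells held a count. Cdk1, the kinase of mitotic entry, was at 0 at P19 and at 0 to 768 CPM (median 30.8) at E14.5. Mki67, the proliferation antigen Ki-67, had 4 counts in AN1 and stood at 272 CPM in N24, with a count in 3 of 11 E14.5 cells. Gmnn, the endogenous geminin gene, overlapped at 77.3, 32.2, 60.2 and 52.4 CPM against 0 to 288 CPM (median 67.1). The 3 G2/M genes higher at P19 were Pttg1, the securin gene, with a ratio of 2.09, and the centromere genes Cenpa and Cenpf, at 28.7, 80, 228 and 11.3 CPM against 0 to 54.9 CPM (median 0.0657) and at 51.6, 0, 76.1 and 79.3 CPM against 0 to 76.6 CPM (median 0). Cenpa and Cenpf had the opposite sign in the comparison of reporter-positive cells, at -2.74 and -2.87.

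**Figure D4:**
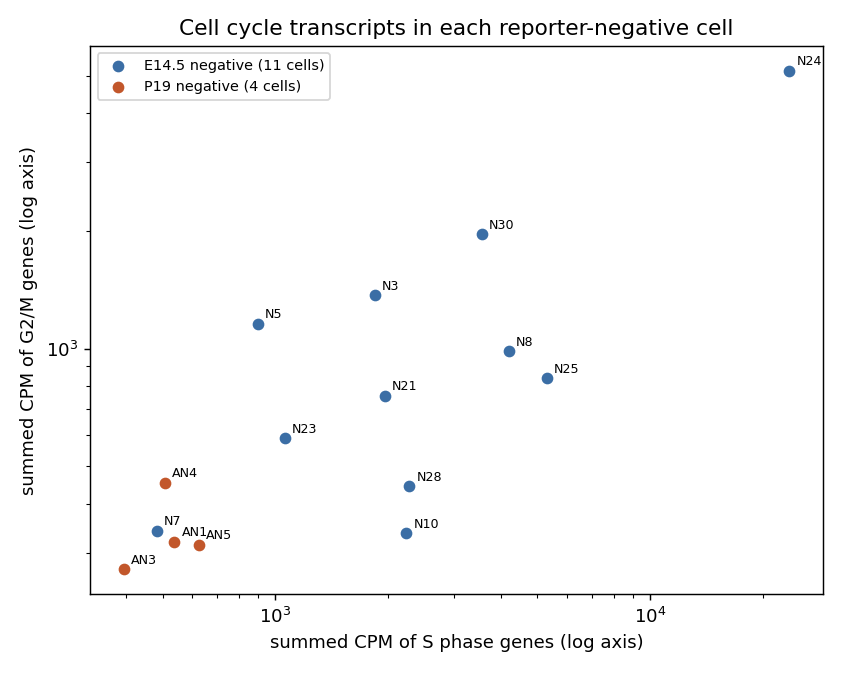
Each point is 1 reporter-negative cell, named by its title, with the summed CPM of 36 S phase genes on the x axis and of 46 G2/M genes on the y axis, both on log axes; blue is E14.5 and orange is P19. The 4 P19 cells lie at the lower left with N7, and N24 lies apart at 23556 and 5142 CPM.

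E2F letters were frequent upstream of S phase genes. Of 28 with a promoter in the table, 11 (39.3%) held GGCGGGAA or TTTGGCGC, against 3.07% of all genes and 1 of 41 G2/M genes. Mcm6, shown because it held 2 matches, carries them 110 and 47 bases before its start.
Mcm6 (GRCm38.p6, chr1:128359706-128359955, minus strand): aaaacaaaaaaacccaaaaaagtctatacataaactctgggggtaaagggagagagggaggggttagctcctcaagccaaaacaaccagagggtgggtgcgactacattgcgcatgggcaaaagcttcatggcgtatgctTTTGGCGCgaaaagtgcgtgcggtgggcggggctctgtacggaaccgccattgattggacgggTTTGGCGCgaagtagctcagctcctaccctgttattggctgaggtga
Among cyclins, CDKs and E2F factors 19 of 27 measured genes were at least 2-fold lower and 1 was at least 2-fold higher, Ccng1, a p53-induced cyclin, at 768, 733, 863 and 605 CPM against 0.877 to 629.7 CPM (median 313). By the median over cells 8 of the 27 (29.6%) were lower, beside 19% of all genes. Among 16 inhibitors of the cycle 11 were at least 2-fold lower. Cdkn1c, the imprinted inhibitor p57, stood at 19.2, 0, 0 and 0 CPM against 104 to 3228 CPM (median 523), and Btg2, an antiproliferative immediate early gene, at 43.1, 0, 0 and 2.89 CPM against 4.18 to 2865 CPM (median 413).

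Of the lamin genes, Lmnb2, which encodes lamin B2, was too scarce in negative cells to give a direction. It had 58 counts in AN1, 0 in the other P19 cells and 59 counts over 4 E14.5 cells, a log2 ratio of 1.31 (0.76 to 1.85) that was -2.42 without AN1. Lmnb1, which encodes lamin B1, was at 0 at P19 and at 0 to 47.1 CPM (median 4.52) at E14.5. Lmna, which encodes the A-type lamins, stood at 32.3, 66.5, 60.9 and 85.6 CPM against 0 to 69.1 CPM (median 8.13), overlapping, with a ratio of 1.65. Tmpo, a lamina-associated protein, stood at 10, 24.4, 66.8 and 0.0705 CPM against 57.8 to 2320.1 CPM (median 540.2). Over 18 measured genes of the lamina and inner nuclear membrane, 4 were at least 2-fold higher, 7 at least 2-fold lower and the median was -0.43. The list summed to 425 to 556 CPM per cell at P19 and 598 to 3170 CPM at E14.5. Its median turned with the cells and the scale. Without AN1 it was -1.09, with 2 genes higher and 10 lower. By the median over cells it was 0.73, with 8 higher (44.4%) and 5 lower (27.8%), beside 23.4% and 19% of all genes. Genes of the nuclear pore and transport had 26 of 42 at least 2-fold lower, 2 at least 2-fold higher and a median of -1.35. By the median over cells 17 (40.5%) were lower, 9 (21.4%) higher and the median was -0.42, beside 19%, 23.4% and 0.00 for all genes. Ran, the GTPase of nuclear transport, was at 249, 476, 207 and 433 CPM against 390.3 to 2771 CPM (median 1425).

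Markers of other cell types moved with single cells. In the fibroblast list 15 of 16 measured genes stood at least 2-fold lower at P19, and 9 of the 16 were at a bound. Without N10, 11 were measured, of which 7 were lower by that margin and 3 higher, and the median moved from -8.48 to -3.83. Postn (periostin) stood at 45688 CPM in N10 and 0 in every P19 cell. Of 15 measured endothelial genes 11 were at least 2-fold higher (median 5.63), and the median was -2.32 without AN1. Fabp4, a lipid carrier of capillary endothelium, stood at 942 CPM in AN1 and 0 in the other P19 and all E14.5 cells. Some E14.5 cells also held transcripts of other lineages. The endothelial list reached 608 CPM in N21 and 208 CPM in N8. The macrophage list reached 229 CPM in N21, and the erythroid list 35.2 CPM in N10. In the P19 cells these latter lists reached at most 0.343 and 0.0999 CPM. The part of these transcripts in the other differences was not tested. Without AN1 and N10 the median was 0.93 for the sarcomere list, 1.61 for oxidative phosphorylation, 1.48 for fatty acid use and -11.45 for imprinted genes.

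The same ages were compared in cells sorted as reporter positive, 8 at P19 and 10 at E14.5, which share no cell with the negative groups, though whether they share animals is not given. Of 1085 genes at least 2-fold higher at P19 in negative cells with at least 20 CPM (17.6% of such genes), 89.2% had the same sign in positive cells. Also at least 2-fold higher there were 69.4%. Of 6159 genes past that CPM limit and measured in positive cells, 1205 were at least 2-fold higher there. Of genes measured there at any level, 25.3% were. Of 3169 such genes lower in negative cells (51.5% of genes with at least 20 CPM were lower), 88.5% had the same sign. Also at least 2-fold lower were 69.6%, beside 2620 of the 6159 and 46.5% of genes at any level. Among genes measured in positive cells, every P19 cell lay above every E14.5 cell in 2.45% and below in 2.8%. In 310 genes the ages did not overlap in either comparison, and all 310 had the same direction in both. List medians in negative and positive cells were 1.77 and 1.55 for oxidative phosphorylation, 1.49 and 2.11 for fatty acid use, 0.80 and 1.09 for the sarcomere, and -10.31 and -7.51 for imprinted genes. They lay further apart for G2/M, at -7.13 and -11.75, for dissociation stress, at -5.86 and -2.49, and for the nuclear lamina, at -0.43 and -1.57. These differences were not tested. Some named genes were far apart as well. Casq1 had ratios of -12.26 and -0.73, and Postn, which rests on N10 in the negative cells, had ratios of -17.49 and 3.72.

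**Figure D5:**
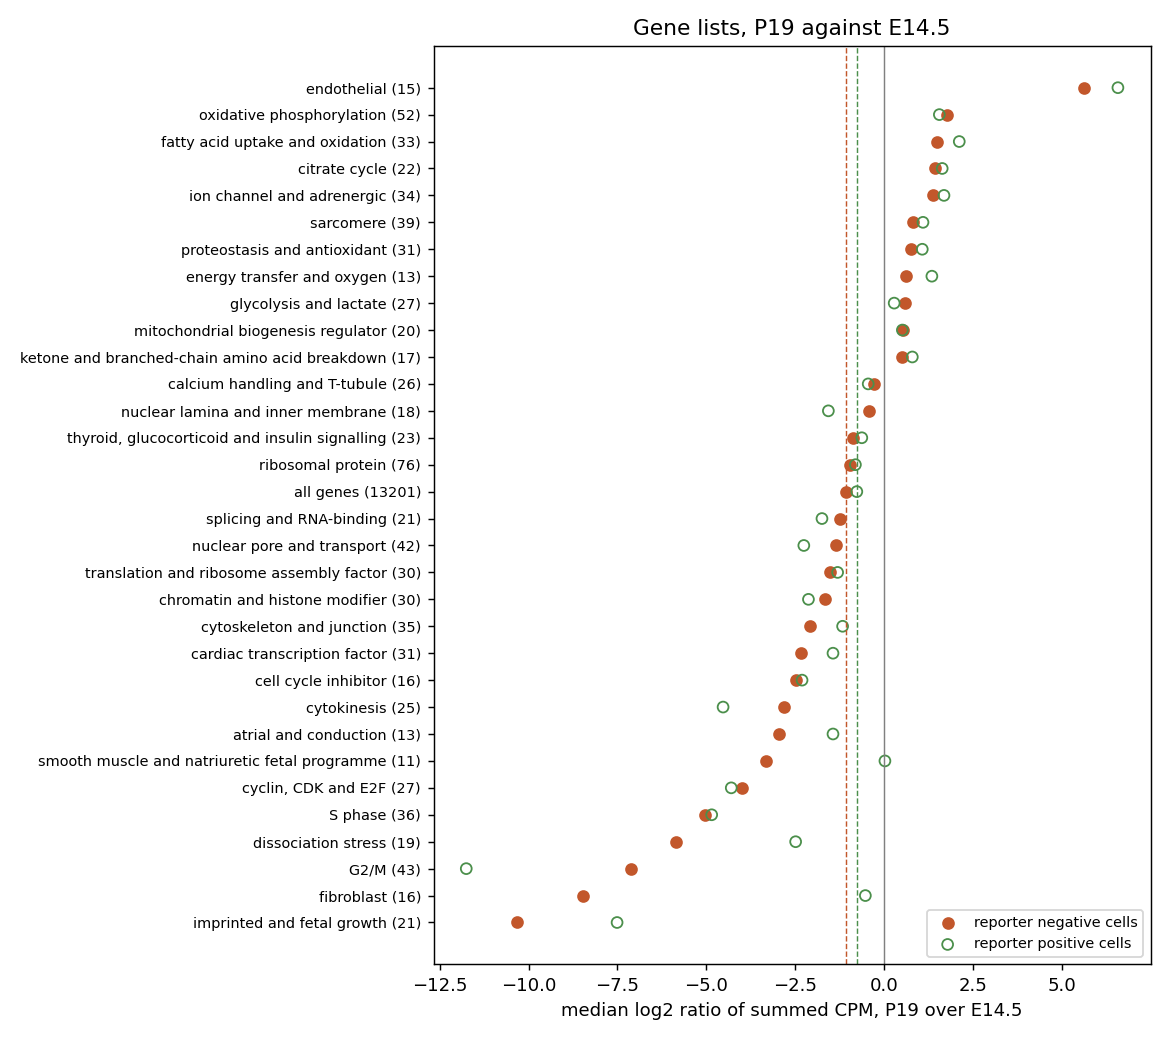
Median log2 ratio, P19 over E14.5, of each gene list with at least 10 measured genes (number in parentheses, negative cells); filled points are reporter-negative and open points reporter-positive cells, and dashed lines mark the all-gene medians of -1.07 and -0.77. Metabolic and sarcomere lists lie to the right of the dashed lines in both, G2/M and imprinted genes far to the left, and the endothelial point of the negative cells rests on AN1.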

How the data were processed

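RNA of single ventricular cardiomyocytes was turned into cDNA, and libraries were made with an Illumina TruSeq kit, per the labels' protocols. The submitters' processing notes name CASAVA 1.8.2, the aligner STAR 2.4.0j, the counter HTSeq 0.6.1p1 and the build mm10. How strand, duplicates and reads matching several genes were treated is not given in the sources used here. Raw counts were deposited by the authors for 20728 genes in 33 cells, and the count columns of the 15 reporter-negative cells were used, with the other 18 for the comparison of positive cells. Total counts were 7.8 to 55 M per negative cell. No 2 columns were identical.

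Counts were summed per group and divided by the summed total (CPM). Ratios carry exact conditional binomial 95% intervals for counting error only, and PCR copies are not independent molecules. A gene needed at least 10 counts over both groups, and a group at 0 was set to 3 counts. The calculation was tested on simulated counts that held counting error alone. Spread between cells and PCR copies were not simulated, so that test does not cover them. The members and the 37 gene lists, with 937 genes of which 922 were found (22 by another symbol), were chosen with earlier results of these data known. Named genes were the markers, the members of the 20 pairs, the lamin genes, Gmnn and Mki67, the 10 leading genes in each direction, up to 6 genes of each list described (the 2 most abundant and the 2 of largest ratio in each direction) and the 5 genes most like each marker. Leading genes had 20 CPM or more in the higher group, with counts in 3 of every 4 of its cells. Lynx1, Rai2, Art5, Hif3a and Mex3a come from the last rule. A few genes that these rules name are not reported here. Tnnt2, Pdgfrb, Pttg1 and the list totals were added as checks. Alternatives were TMM factors (edgeR 4.0.16), DESeq2 1.42.0 size factors, the mean or median over cells, mean log2(CPM + 1), thinning, other filters and floors, totals without the 10 most abundant genes, subsets of cells and leaving out each cell. Without AN1 and N10 together, and members with at least 20 CPM, were added after the data had been seen. Positions are from GENCODE vM21 and promoters from RefSeq. Python 3.11.15, numpy 2.4.6, pandas 2.3.3, scipy 1.17.1 and matplotlib 3.10.9 were used.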

Additional observations from a re-analysis of the deposited data

Results flagged for a closer look

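Among the 4 P19 cells, 128 list sums and named genes were examined for a cell whose gap to the nearest other cell took a larger part of the range than Dixon's 95% limit for 4 values, and 18 were found. The limit is made for normally distributed values, and an item with counts in 1 cell only always passes it. Some items also share genes, so the number found is not compared with chance. The 11 E14.5 cells are too many for this rule.

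AN1 stood apart in the endothelial list, at 1414 CPM against at most 1.21 CPM in the other 3 cells, and in the epicardial list, at 13.1 CPM against 0. It also stood apart in Fabp4, at 942 CPM, Lmnb2, at 1.45 CPM, and Cdkn1c, at 19.2 CPM, each against 0, in Btg2, at 43.1 CPM, and in Cox6a2, at 3071 CPM against 2689 to 2710 CPM. Whether endothelial RNA in AN1 bears on its other values was not tested. AN3 stood apart in Myl4, at 0.92 CPM, and in Nup85, a nuclear pore gene, at 163 CPM against at most 5.57 CPM.

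AN4 stood apart in the fibroblast list, at 238 CPM against 24.6 to 48.1 CPM, in Myh7, at 183 CPM against at most 27.1 CPM, in Eef1a1, at 906 CPM against 252 to 336 CPM, and in Gnas, at 704 CPM against 566 to 585 CPM. AN5 stood apart in the neural and Schwann list, at 20.8 CPM against 0, in Hey2, at 4.02 CPM against 0, and in the skeletal actin gene Acta1, at 192 CPM against at most 7.25 CPM. It was the low cell in Rpl4, at 446 CPM against 916 to 995 CPM, and in Tuba1a, at 0.775 CPM against 105 to 118 CPM. No gene had every P19 cell above every E14.5 cell in negative cells and below in positive cells, or the reverse.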

How the results depend on the processing

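No paired analysis was possible because no result comes from a test and the labels give no replicate numbers that the groups share. On leaving out 1 cell at a time, the number of genes at least 2-fold higher was 2535 to 3069 and at least 2-fold lower 6474 to 7049. The list medians were then 0.72 to 1.12 for the sarcomere, 1.29 to 1.60 for fatty acid use, 1.65 to 1.90 for oxidative phosphorylation, -11.45 to -9.71 for imprinted genes, -6.72 to -3.04 for S phase and -7.49 to -3.35 for G2/M. The highest S phase and G2/M medians came without N24. By mean log2(CPM + 1) 3141 genes were at least 2-fold lower, and the medians were 1.23 for the sarcomere, 2.35 for fatty acid use, -4.90 for imprinted genes, -1.19 for S phase and -0.67 for G2/M. By the median over cells 2502 genes were at least 2-fold lower, and the medians were -4.68, -0.16 and 0.00 for imprinted, S phase and G2/M genes. TMM factors gave 1.16 for the sarcomere. Thinning every cell to the shallowest total gave -9.27 for imprinted and -5.48 for G2/M genes. Without N10 and N24 the imprinted, S phase and G2/M medians were -9.40, -2.71 and -3.54, and with E14.5 title numbers 3 to 10 alone -9.33, -3.35 and -4.09. Without AN1 and N10 the imprinted median was -11.45 and the S phase median -6.82. With members of at least 20 CPM the G2/M median was -9.61. The cause of these shifts was not tested.

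Some single values changed sign. On leaving out 1 cell at a time they ran from -2.58 to 3.51 (MHC class I and interferon list), -2.32 to 6.09 (endothelial list), -1.26 to 3.07 (Acta1), -4.00 to 0.15 (Emr1) and -2.42 to 3.60 (Lmnb2). By the median over cells Emr1 was at 0.04. With E14.5 title numbers 3 to 10 Myh7 was at 0.11 and Nrf1 at 0.04. The lowest values came without AN1 for both lists and Lmnb2 and without AN5 for Acta1, and the highest Emr1 value came without N25. Without AN1 and N10 the endothelial median, the MHC class I median and Lmnb2 were at -2.93, -3.13 and -2.56. The ion channel median was -0.15 with members of at least 20 CPM. Depth limits the low values, as 1 count is worth 0.018 to 0.13 CPM in these cells.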

Other observations

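Genes that respond to the workload of the heart did not share a direction. Of 11 measured genes of the smooth muscle and natriuretic fetal programme, 7 stood at least 2-fold lower, while 1 was higher by that margin at P19, and the median was -3.33 in negative cells and 0.02 in positive cells. Acta2, the smooth muscle actin, was held by all 4 P19 cells, at 1290.5, 1087, 219 and 207 CPM in AN1, AN3, AN4 and AN5, and stood at 0 to 1372 CPM (median 13.6) at E14.5. Acta1, the skeletal actin, was at 5.34, 7.25, 0 and 192 CPM at P19, so that its ratio of 2.05 rested on AN5.

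Of 17 measured genes of ketone and branched-chain amino acid breakdown, 8 stood at least 2-fold higher, while 2 were lower by that margin, and the median was 0.51. Ivd, which breaks down leucine, stood at 55.9, 45.4, 70.7 and 145 CPM at P19 and 0 to 16.4 CPM (median 3.91) at E14.5, without overlap. Dbt, a subunit of the dehydrogenase complex of branched-chain keto acids, overlapped, at 23.4, 90.6, 78.6 and 76.8 CPM against 1.06 to 829 CPM (median 193), while Bckdha, another subunit of that complex, stood at 23, 45.1, 61.1 and 100.4 CPM against 0 to 31.4 CPM (median 2.17).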
